A study of Homo sapiens with 6 samples.

Results

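The genes described here are 35 genes of the endoplasmic reticulum (ER) stress response and of the amino-acid response driven by the transcription factor ATF4. They were taken from a list of symbols, drawn up with earlier results of these data known, and all 35 were found among the 27576 genes of the deposited table. The cells were Kasumi-1, a line from acute myeloid leukaemia, kept in RPMI1640 with 20% fetal bovine serum. Control cells received 0.5% bovine serum albumin (BSA) and treated cells received recombinant human interleukin-10 (IL-10) at 10 ng/ml, both for 72 h. TruSeq RNA libraries were sequenced from 3 control and 3 IL-10 samples, numbered 1 to 3 in each group. No label says whether samples came from separate cultures, and every p-value below measures only how far these samples vary, a spread that may be technical. All groups are 1 cell line.

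When unfolded proteins build up in the ER, the sensors IRE1 (gene ERN1), ATF6 and PERK (EIF2AK3) signal to the nucleus. IRE1 splices the mRNA of XBP1, and XBP1 and ATF6 raise the genes of ER chaperones through promoter elements known as the ER stress response element (ERSE) and ERSE-II. PERK, like the amino-acid sensor GCN2, phosphorylates the initiation factor eIF2, which favours translation of ATF4. ATF4 raises genes of amino-acid import, serine and one-carbon metabolism through C/EBP-ATF response elements (CARE), and also DDIT3 (CHOP) and further effectors of prolonged stress. Splicing, phosphorylation and translation are not read out by the gene totals used here.

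The elements through which these factors are known to act are shown first, for some of the genes whose promoter windows held them. RefSeq promoter windows (GRCh38.p14, 250 bases before to 50 bases after a gene start) were present for 30 of the 35 genes, in 45 windows, and each motif was searched on both strands. The ERSE, spelled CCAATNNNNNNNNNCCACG, was in 27 of all 35116 windows (0.0769%), and its windows included those of 6 of the 35 genes: CALR, CANX, HSP90B1, HSPA5, PDIA6 and XBP1. The ERSE-II, ATTGGNCCACG, was in 19 windows (0.0541%), among them those of HYOU1 and SDF2L1. A CARE spelled TGATGNAA was in 1270 windows (3.62%), among them those of ASNS, CHAC1 and SLC3A2. The ERSE and ERSE-II share the blocks CCAAT and CCACG, and no gene of the 35 held more than 1 kind of motif. Genes of the 35 not named here held no match or had no window. A match is a description of letters only. Capitals mark the motif in the lines that follow, which read 5′ to 3′ on the strand of the gene.
HSPA5, chr9:125241386-125241414, minus strand, ERSE: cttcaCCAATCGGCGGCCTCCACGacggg
HSP90B1, chr12:103930211-103930239, plus strand, ERSE: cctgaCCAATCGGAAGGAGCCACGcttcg
HSP90B1, chr12:103930316-103930344, plus strand, ERSE in reverse: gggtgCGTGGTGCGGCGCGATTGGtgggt
CALR, chr19:12938379-12938407, plus strand, ERSE in reverse: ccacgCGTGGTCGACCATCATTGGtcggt
XBP1, chr22:28800598-28800626, minus strand, ERSE: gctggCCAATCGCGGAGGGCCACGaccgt
HYOU1, chr11:119057265-119057293, minus strand, ERSE-II in reverse: ggcctgggaCGTGGTCCAATgagtacgcg
SDF2L1, chr22:21642105-21642133, plus strand, ERSE-II in reverse: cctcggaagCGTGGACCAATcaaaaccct
ASNS, chr7:97872458-97872487, minus strand, CARE: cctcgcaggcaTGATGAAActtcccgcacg
CHAC1, chr15:40953251-40953280, plus strand, CARE in reverse: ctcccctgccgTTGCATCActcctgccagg

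HSPA5 encodes BiP, the main Hsp70 chaperone of the ER lumen, and its promoter is the textbook case of an ERSE. The 250 bases before its start (chr9:125241344-125241593, minus strand) are given in full, with the exact match to the ERSE in capitals. Inexact copies were not searched for.
HSPA5: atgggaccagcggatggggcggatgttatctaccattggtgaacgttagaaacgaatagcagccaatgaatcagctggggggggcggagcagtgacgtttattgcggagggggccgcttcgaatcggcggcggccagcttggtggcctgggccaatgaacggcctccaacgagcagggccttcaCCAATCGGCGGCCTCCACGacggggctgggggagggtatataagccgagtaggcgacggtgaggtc
The first base of this ERSE lies 66 bases before the gene start, and that of the XBP1 promoter 52 bases before.

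The deposited values are reads per gene divided by 1 size factor per library, called normalised reads below, and the libraries held 20750115 to 24222897 reads over all genes. The size factor was lowest in IL-10 replicate 2, at 0.851 with 23077693 reads, beside 0.936 to 1.12 in the others. Values of that library therefore stand higher against the others than they would with division by library totals. All 6 markers of Kasumi-1 and myeloid blasts that were listed (KIT, CD34, RUNX1T1, MPO, CD33 and SPI1) were read in every library. Their sum differed by number: 229342 (control) and 215267 (IL-10) in number 1, and 131764 and 132288 in number 3. In number 2 it was 152738 and 222471. Both libraries numbered 2 stood apart from the other 4. Liver transcripts were present there: 11 of 12 liver markers were higher in both than in any other library. The sum of those 11, without SERPINA1, reached 982 in the control and 457 in the IL-10 library of that number. It was 13.9 to 24.0 in the other 4. SERPINA1 was the 1 marker lower in both. With it the sums were 1862 and 1615, which overlap the 1321 to 1681 of the other 4. Of the 12 liver markers, 8 or 9 were at 0 in each of those 4 libraries and 0 were at 0 in the libraries numbered 2. IL-10 replicate 2 also differed from control replicate 2 in step with the GC content of the genes, as described below. Libraries of a shared number deviated together from their group means (correlations of 0.367, 0.605 and 0.726 over 11605 genes for numbers 1, 2 and 3), so each comparison by number rests on 1 control and 1 IL-10 library per number. Pseudogenes of 6 of the 35 genes were in the table, and the largest shares were PSPHP1 at 7.99% of PSPH, PDIA3P1 at 2.02% of PDIA3 and SLC7A5P1 at 1.44% of SLC7A5. Reads from such copies, or from genes overlapping on the other strand, could be split differently by another counting.

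The ER chaperone CALR was the most abundant of the 35 mRNAs, and other chaperones ran from near the top of the order to near its end (DNAJB9 at 2.20 ± 0.366). On an RPKM scale (reads divided by exon length and library total), the mean of the 6 libraries was 568 ± 107 (SD) for CALR (calreticulin, a lectin chaperone), 181 ± 22.4 for ATF4 and 151 ± 34.7 for HSP90B1 (GRP94, the Hsp90 of the ER). HSPA5 followed at 146 ± 43.9, CANX (calnexin, the membrane-bound partner of calreticulin) at 135 ± 11.6 and XBP1 at 116 ± 2.65. Below these came SLC7A5 (LAT1, a carrier of large neutral amino acids) at 105 ± 49.3 and PSAT1 (a serine synthesis enzyme) at 101 ± 9.52. CALR stood above ATF4 by 3.62 times the larger SD of the pair. From ATF4 through HSP90B1 and HSPA5 to CANX, each gene lay within 1 such SD of the next, though ATF4 and CANX did not lie that close to each other. The lowest levels were VLDLR (a lipoprotein receptor) at 1.31 ± 0.664, ERN1 at 1.11 ± 0.0978, SLC7A11 (the cystine carrier) at 1.09 ± 0.309 and CHAC1 (a glutathione-degrading enzyme) at 0.488 ± 0.288. Of these, VLDLR, ERN1 and SLC7A11 lay within 1 SD of one another in that order. The SD carries the differences between replicate numbers: on this scale DDIT4 had a mean of 32.1 and an SD of 26.2, next to MTHFD2 at 31.6 ± 3.89. Lengths of the longest transcript in place of all exons moved SLC3A2 from position 14 to 7 and PHGDH from 23 to 19.

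**Figure D1:**
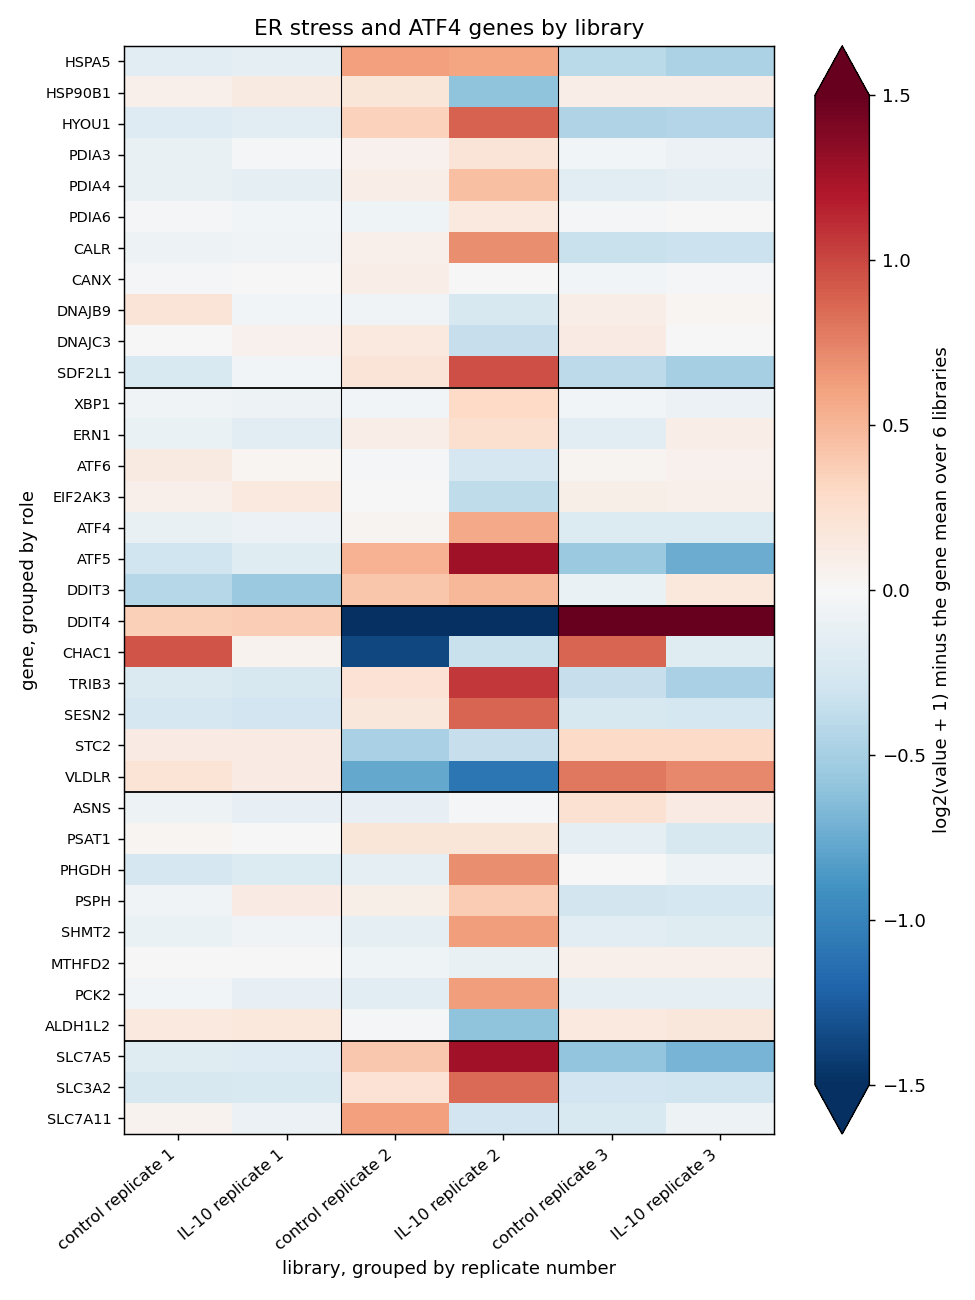
Each gene's log2(normalised reads + 1) minus its mean over the 6 libraries, with genes grouped by role and libraries by replicate number; colours end at -1.5 and 1.5. Columns of a shared number are alike for numbers 1 and 3, and DDIT4 runs from 206 normalised reads in control replicate 2 to 2828 in control replicate 3.

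After 72 h of IL-10, none of the 35 genes passed the test against control. limma with an intensity trend, on log2(normalised reads + 1) with Benjamini-Hochberg adjustment over 21946 genes, called 0 of 35, and 0 of 21946 over all genes (0%). Among the 35 genes 0 had an unadjusted p under 0.05, compared with 344 of all genes (1.57%), and edgeR and DESeq2 also called 0 genes, with 257 and 94 at an unadjusted p under 0.05. For 0 of 35 genes did the control and IL-10 values not overlap, against 5.87% of all genes tested and 3.13% of those with a mean of at least 50. The log2 differences ran from -0.30 to 0.28, with 21 positive and 14 negative. Their median was 0.07, beside 0.02 over all genes and 0.05 over genes of mean at least 50. It turned to -0.03 with values scaled to equal totals, to -0.01 with quantile normalization and to -0.04 without IL-10 replicate 2, where 10 of 35 differences were positive. The 95% intervals had a median half-width of 0.50 on the log2 scale. They come from a fit that does not pair libraries by number, so they also carry the spread between numbers. In that fit, differences well below this size could not be told from 0. A fit with the replicate number as a term also called 0 of the 35 genes. In bulk RNA, fewer cells that express a gene and less of its RNA per cell cannot be told apart. A list of 4 airway genes, chosen from earlier results, was lower in all 3 IL-10 libraries (sums of 77.0 to 84.5, against 163 to 199 in control), with 0 of 4 called. Of the plasma cell markers 0 of 3 tested were called, and of 5 fibroblast markers 1 was in the table, at 0 to 4.70.

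The chaperones and folding enzymes (11 genes) had a median log2 difference of 0.06 with IL-10, 6 positive and 5 negative. Values are given in the order of replicates 1 to 3. CALR was at 32815, 36516 and 27394 normalised reads in control and at 33293, 55885 and 27722 with IL-10. CANX was at 18694, 20403 and 18505 in control and at 18849, 18999 and 18591 with IL-10. HSP90B1 was at 16451, 17713 and 16762 in control and at 17162, 10237 and 16739 with IL-10. In each of these 3 genes the treated and untreated values overlapped, and IL-10 replicate 2 held the highest CALR value and the lowest HSP90B1 value of all 6 libraries. HSPA5 was at 11145, 19111 and 9425 in control and at 11273, 18943 and 8993 with IL-10, so that the high value of each group was its replicate 2. Its log2 difference was -0.02, with a 95% interval of -0.77 to 0.73. DNAJC3 (p58IPK, a co-chaperone that restrains PERK) was at 1004, 1114 and 1098 in control and at 1051, 792 and 1004 with IL-10, low only in IL-10 replicate 2. HYOU1 (GRP170, a nucleotide exchange factor of BiP) was at 3693, 5371 and 3084 in control and at 3781, 7764 and 3111 with IL-10. The largest positive difference of the group was that of SDF2L1, a partner of the ER co-chaperones, at 0.28 with an interval of -0.49 to 1.06. The protein disulfide isomerases PDIA3, PDIA4 and PDIA6 ran from 4334 to 5350, from 4416 to 6761 and from 4417 to 5113 over the 6 libraries, and DNAJB9 (ERdj4, a co-chaperone raised by XBP1) from 119 to 160.

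Among the sensors and transcription factors (7 genes), the median difference with IL-10 was 0.09, 5 positive and 2 negative. ATF4 was at 9557, 10579 and 8955 normalised reads in control and at 9650, 15236 and 8889 with IL-10. ATF5, a related factor whose translation also rises under stress, was at 236, 416 and 197 in control and at 254, 699 and 172 with IL-10. DDIT3 (CHOP, the factor tied to death under lasting stress) was at 127, 228 and 159 in control and at 115, 242 and 191 with IL-10. All 3 were higher in the replicate numbered 2 of both groups than in any other library. XBP1 was at 7658, 7751 and 7710 in control and at 7530, 9808 and 7473 with IL-10, high only in IL-10 replicate 2. That rise depended on the scaling: on the RPKM scale XBP1 was at 119 there and at 112 to 118 in the other libraries. Of the 3 membrane sensors, ERN1 was at 254, 293 and 243 in control and at 242, 322 and 293 with IL-10. ATF6 was at 1512, 1346 and 1417 in control and at 1403, 1152 and 1435 with IL-10. EIF2AK3 was at 293, 278 and 294 in control and at 306, 213 and 292 with IL-10. The log2 differences of the sensors were 0.11 for ERN1, -0.10 for ATF6 and -0.11 for EIF2AK3, and all 3 intervals include 0.

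The stress effectors (6 genes) had a median difference of 0.13 and the widest intervals, since they varied most between replicate numbers. DDIT4 (REDD1, an inhibitor of mTORC1) was at 1254, 206 and 2828 normalised reads in control and at 1258, 334 and 2794 with IL-10. Control and treated libraries were thus close in numbers 1 and 3, while in number 2 the log2 ratio of IL-10 to control was 0.69. The 6 libraries spanned 13.7-fold from lowest to highest. VLDLR was at 280, 142 and 422 in control and at 265, 114 and 399 with IL-10, and STC2 (stanniocalcin 2, a secreted glycoprotein) at 3103, 2035 and 3475 and at 3107, 2248 and 3473. Both followed the order of DDIT4, lowest in number 2 and highest in number 3. TRIB3 (a pseudokinase that binds ATF4) was at 890, 1202 and 811 in control and at 873, 2151 and 735 with IL-10. SESN2 (sestrin 2, an amino-acid sensor upstream of mTORC1) was at 510, 680 and 513 in control and at 497, 1106 and 502 with IL-10. TRIB3 and SESN2 were highest in number 2 in both groups. CHAC1 was the least abundant, with 6.96 to 38.2 normalised reads, and had a log2 difference of -0.30 with IL-10, with an interval of -1.62 to 1.02; it became -1.06 without control replicate 2.

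Genes of amino-acid synthesis and one-carbon metabolism (8 genes) had a median difference of 0.07, 4 positive and 4 negative. SHMT2 (mitochondrial serine hydroxymethyltransferase) was at 7093, 6952 and 6855 normalised reads in control and at 7384, 11776 and 6708 with IL-10. PHGDH, which commits carbon to serine synthesis, was at 1827, 1962 and 2151 in control and at 1877, 3503 and 2050 with IL-10. PCK2 (mitochondrial phosphoenolpyruvate carboxykinase) was at 3593, 3291 and 3342 in control and at 3398, 5695 and 3340 with IL-10. These 3 had the smallest unadjusted p of the positive differences, at log2 differences of 0.26, 0.27 and 0.24 and adjusted p of 0.982 in each (limma), and in each IL-10 replicate 2 was the highest library. PSAT1 was at 5107, 5683 and 4526 in control and at 4991, 5677 and 4240 with IL-10. MTHFD2 (a mitochondrial folate enzyme) was at 3485, 3315 and 3647 in control and at 3492, 3222 and 3666 with IL-10. ASNS (asparagine synthetase) was at 544, 526 and 670 in control and at 528, 561 and 626 with IL-10. In normalised reads the 3 genes kept the order of the replicate numbers in both groups, except that the lowest ASNS value of the IL-10 group was in replicate 1. On the RPKM scale MTHFD2 and ASNS kept it, and PSAT1 did not, at 107, 116 and 96.0 in control and at 103, 95.7 and 89.8 with IL-10. PSPH, the last enzyme of serine synthesis, ran from 703 to 1107 and ALDH1L2, another mitochondrial folate enzyme, from 1336 to 2292.

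Amino-acid transport was represented by 3 carriers, with a median difference of 0.21. SLC7A5 was at 9173, 13777 and 6914 normalised reads in control and at 9129, 24827 and 6398 with IL-10. SLC3A2 (CD98 heavy chain, the partner of SLC7A5 and SLC7A11) was at 4674, 6369 and 4507 in control and at 4679, 9900 and 4458 with IL-10. Both were highest in IL-10 replicate 2 and next highest in control replicate 2. SLC7A11 was at 240, 355 and 197 in control and at 218, 189 and 219 with IL-10, and its log2 difference of -0.30 (interval -0.84 to 0.25, adjusted p = 0.982, limma) had the smallest unadjusted p of the negative ones. The next were HSP90B1 at -0.24 and DNAJC3 at -0.19, also with an adjusted p of 0.982 in limma.

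**Figure D2:**
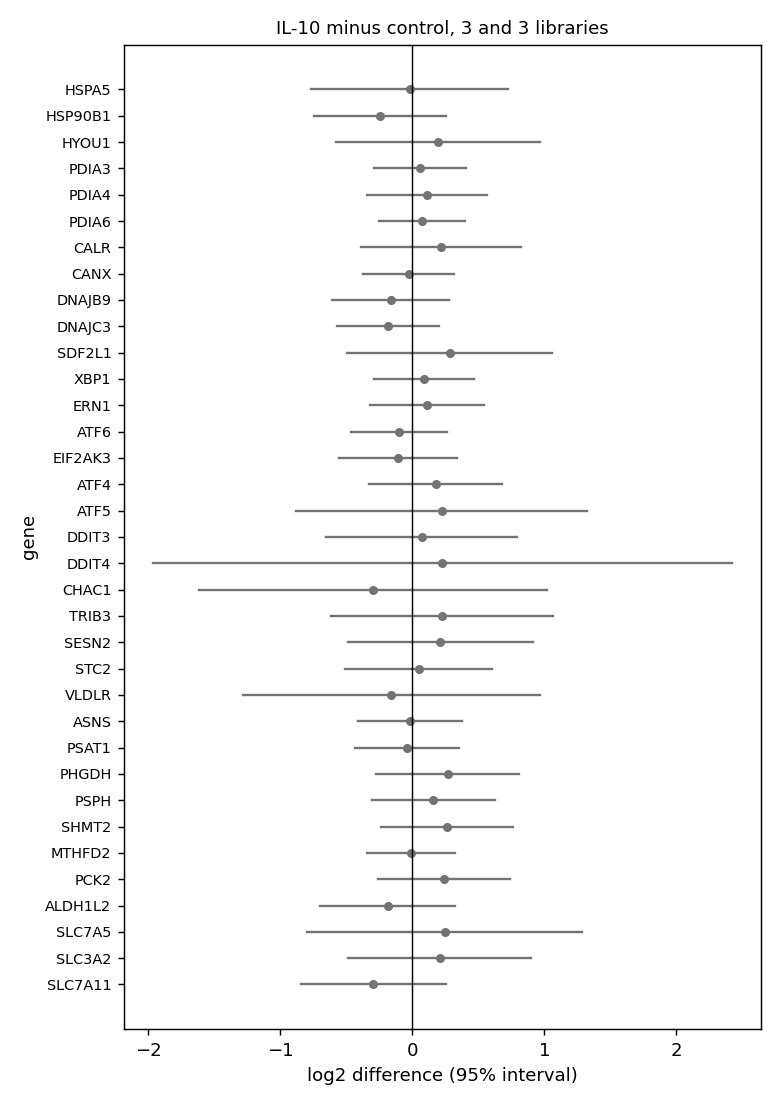
Log2 difference of IL-10 minus control (x axis, points) with its 95% interval from limma (lines) for the 35 genes (y axis), 3 libraries against 3. All 35 intervals include 0, and the widest is that of DDIT4, from -1.97 to 2.42.

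Within pairs of equal number, IL-10 and control differed little in numbers 1 and 3 and more in number 2. Over the 35 genes the median absolute log2 ratio of IL-10 to control was 0.04 for number 1, 0.49 for number 2 and 0.03 for number 3. At least a 1.5-fold difference was seen for 1 gene in pair 1 and 1 in pair 3, CHAC1 both times, and for 15 genes in pair 2. CHAC1 was lower with IL-10 in pairs 1 and 3 (-0.88 and -1.05) and higher in pair 2 (1.03), at the lowest read numbers of the 35 genes. In pair 2 the ratio followed the GC content of the transcript. Across the 35 genes the correlation was 0.897 (Pearson) and 0.912 (Spearman), and across 11576 genes of mean at least 50 it was 0.805 and 0.833. These are given as descriptions of 2 libraries, since genes are not independent replicates. All 12 genes of the 35 with 55% GC or more were higher in IL-10 replicate 2, with a median of 0.75 beside 0.66 for all genes of that GC. Of the 13 under 45% GC, 11 were lower, with a median of -0.23 beside -0.40. In pairs 1 and 3 the correlation over the 35 genes was -0.08 and -0.33. The positive pair 2 ratios of TRIB3, SESN2, SLC7A5, SLC3A2, ATF5 and ATF4 came with a GC content of 56.7 to 61.1%, and the negative ones of SLC7A11 and HSP90B1 with 35.4 and 41.2%.

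**Figure D3:**
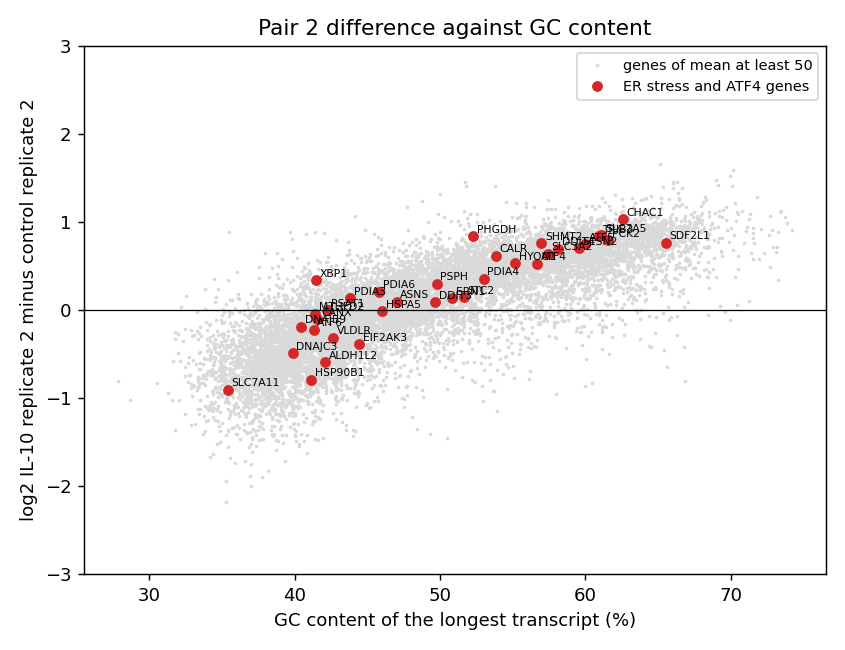
Log2 ratio of IL-10 replicate 2 to control replicate 2 (y axis) against the GC content of the longest transcript in percent (x axis), with the 35 genes in red and all genes of mean at least 50 in grey. The red points rise with GC content along the grey ones, from SLC7A11 at -0.90 to CHAC1 at 1.03.

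Libraries numbered 1 and 3 differed more from each other than the control and IL-10 libraries of either number did. The median absolute log2 ratio over the 35 genes was 0.10 between control replicates 1 and 3 and 0.13 between IL-10 replicates 1 and 3, beside 0.04 and 0.03 within numbers 1 and 3; within number 2 it was 0.49. Between the libraries numbered 3 and those numbered 1 (2 against 2, each with 1 control and 1 IL-10), DDIT4, VLDLR and DDIT3 were higher in number 3 while BiP, calreticulin, HYOU1 and LAT1 were lower. limma called 15 of the 35 genes, 42.9%, where it called 2829 of 22400 genes (12.6%) and 2644 of 11604 genes of mean at least 50 (22.8%). Of the 15, 6 were higher, beside 5.35% of all genes and 9.07% of genes of mean at least 50, and 9 were lower, beside 7.28% and 13.7%. The test sets the gap between the numbers against the spread of the 2 libraries within each. Its SDs, SEs and p-values therefore do not measure how far numbers vary from one another. The share of higher calls over all genes was 42.3% and became 64.4% with quantile normalization, 56.0% with equal totals and 52.4% in edgeR, while the sign of none of the 15 genes turned under any alternative. The calls lean on the intensity trend: limma without the trend called 0 genes, as did a limma fit of all 6 libraries, and quantile normalization left 598 genes and 7 of the 15 (CALR, DDIT4, HSPA5, HYOU1, SLC7A5, STC2 and VLDLR). edgeR called 14 of the 15 (14.2% of all genes) and DESeq2 called 11 (6.55%). Without IL-10 replicate 3 there were 1859 genes and 10 of the 15, in a fit whose single library numbered 3 is taken to vary like those numbered 1.

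DDIT4 had the largest difference of the 35 between numbers 3 and 1. It rose from 1256 ± 2.80 (SD, n = 2) in number 1 to 2811 ± 24.1 in number 3, a log2 difference of 1.16 ± 0.05 (SE) or 2.24-fold, with an adjusted p of 3.59e-12 in limma across all genes. VLDLR rose by 0.59 ± 0.09 on the log2 scale (adjusted p = 1.29e-04, limma) and DDIT3 1.44-fold (log2 0.52 ± 0.14, adjusted p = 0.0137, limma). Smaller increases were called for ASNS (0.27), PHGDH (0.18) and STC2 (0.16). Effectors thus made up 3 of the 6 higher genes, out of 6 effectors in all, and TRIB3 was negative at -0.19 with an adjusted p of 0.0585 in limma. It was called lower in 4 of 16 alternatives (pseudocount of 10, filter of 10, without control replicate 3, and treatment as a term).

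On the lower side, SLC7A5 fell from 9151 ± 30.7 (SD, n = 2) to 6656 ± 365 normalised reads (log2 -0.46 ± 0.04, adjusted p = 1.31e-07, limma). Of the 11 chaperones, 4 were called lower and 0 higher: HSPA5 (-0.28 ± 0.03, adjusted p = 1.69e-05, limma), HYOU1 (-0.27), CALR (-0.26) and SDF2L1 (-0.31). HSPA5 went from 11209 ± 90.7 to 9209 ± 306 and CALR from 33054 ± 338 to 27558 ± 231. In both genes the libraries of the 2 numbers did not overlap. The same held for 22 of the 35 genes, beside 51.7% of all genes and 64.4% of genes of mean at least 50. The other 7 chaperones had differences between -0.02 and 0.03. Among the transcription factors ATF5 (-0.41) and ATF4 (-0.11) were lower, the latter at an adjusted p of 0.043 in limma that held in 2 of 16 alternatives. In serine synthesis PSPH (-0.30) and PSAT1 (-0.20) were lower while PHGDH was higher, so the 3 enzymes of that pathway did not move one way.

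**Figure D4:**
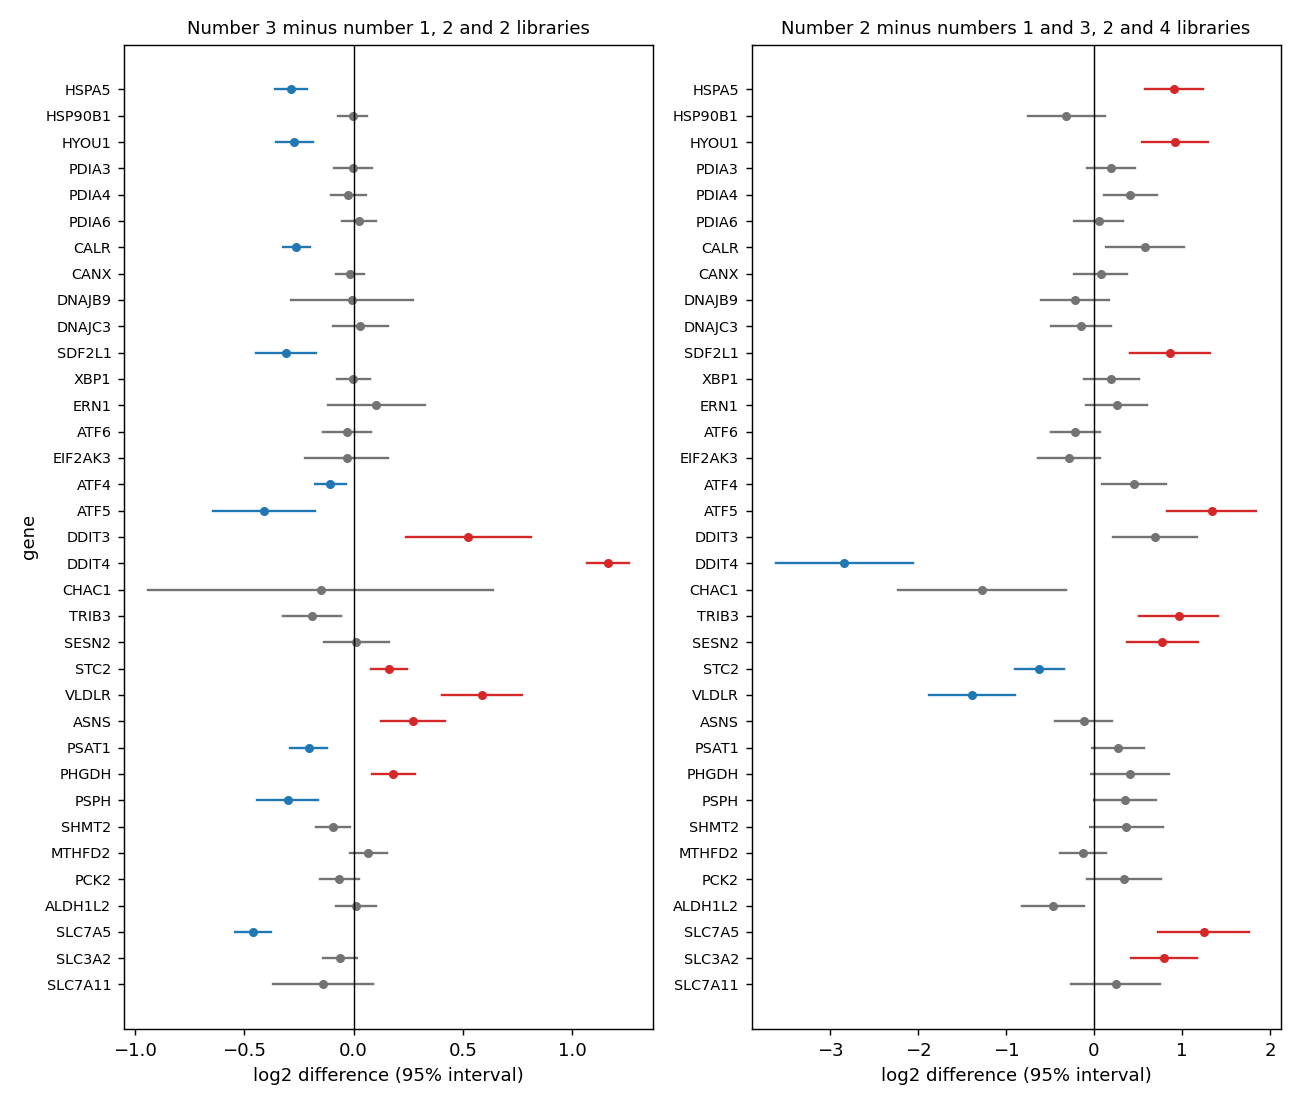
Log2 differences (x axes, points) with 95% intervals from limma (lines) for the 35 genes (y axes), for number 3 minus number 1 on the left and number 2 minus numbers 1 and 3 on the right; red and blue mark genes called higher and lower. DDIT4 is at 1.16 on the left and at -2.84 on the right, and HSPA5 at -0.28 and 0.91; the panels share the libraries numbered 1 and 3.

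The libraries numbered 2 were set against the other 4 after the values had been seen. Libraries of a shared number deviated together, so those 4 are 2 pairs. The SDs, SEs and p-values of this comparison count each library as independent and do not measure how far numbers vary. In number 2, ATF5, LAT1, its partner CD98, TRIB3, sestrin 2, BiP, HYOU1 and SDF2L1 were higher, and DDIT4, VLDLR and STC2 were lower. limma called these 11 of the 35 genes (31.4%), where it called 1601 of 23996 genes (6.67%, 3.88% higher and 2.8% lower). Of 11605 genes of mean at least 50 it called 1294 (11.2%, 6.64% higher and 4.52% lower). Of the 35 genes, 17 had both number 2 values above the other 4 libraries. That held for 18.4% of all genes and 28.8% of genes of mean at least 50. Both values lay below in 9 genes, beside 16.2% and 20.8%. This made 26 in all, beside 34.6% of all genes and 49.6% of genes of mean at least 50. The split of calls over all genes was 930 higher and 671 lower, 58.1% higher, and with equal totals 42.7% were higher; that scaling moved the median of all genes from -0.04 to -0.18 and left the 11 genes called, 8 higher and 3 lower. The liver transcripts described above, with SERPINA1 left out, summed to 457 to 982 normalised reads in these libraries and 13.9 to 24.0 elsewhere. Their part in these differences was not tested.

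DDIT4 fell 7.14-fold in number 2, from a mean of 2034 ± 898 (SD, n = 4) to 270 ± 90.5 (n = 2), a log2 difference of -2.84 ± 0.35 (SE) with an adjusted p of 0.00296 in limma across all genes. VLDLR fell 2.61-fold (log2 -1.39 ± 0.22, adjusted p = 0.0112, limma) and STC2 1.53-fold (log2 -0.62 ± 0.13, adjusted p = 0.0272, limma). HSPA5 rose 1.87-fold (log2 0.91 ± 0.15, adjusted p = 0.0134, limma), from 10209 ± 1169 (SD, n = 4) to 19027 ± 118 (n = 2). Its 2 number 2 values were nearly equal in normalised reads, but on the RPKM scale they were 219 in control and 179 with IL-10. HYOU1 rose 1.90-fold and SDF2L1 1.83-fold. The remaining 8 chaperones did not pass, and HSP90B1 was split, with control replicate 2 the highest and IL-10 replicate 2 the lowest of the 6 libraries.

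In the ATF4 arm, ATF5 rose 2.53-fold in number 2 (log2 1.34 ± 0.23, adjusted p = 0.0157, limma) and SLC7A5 2.37-fold (log2 1.25 ± 0.24, adjusted p = 0.0230, limma). TRIB3 (0.96), SLC3A2 (0.79) and SESN2 (0.78) were called higher as well. The effectors did not move one way: 4 of the 6 had negative differences in number 2, and the median of the 6 was -0.94. CHAC1 was not called, but its number 2 values, 6.96 in control and 15.3 with IL-10, lay below the other 4 libraries. ATF4 itself was above the other 4 libraries in both (log2 0.46 ± 0.16) but its adjusted p was 0.104 in limma, and DDIT3 had 0.69 ± 0.22 at 0.0756. None of the 8 synthesis genes passed, with values from -0.46 for ALDH1L2 to 0.41 for PHGDH.

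These calls changed with the libraries used. Without control replicate 3 or without IL-10 replicate 3, 2 of the 11 were still called, DDIT4 and VLDLR, and without control replicate 1 or IL-10 replicate 1 there were 4, with ATF5 and HSPA5 added. Without control replicate 2 the number was 26, in a fit that leaves the GC-shifted IL-10 replicate 2 alone and takes it to vary like the other libraries. Without IL-10 replicate 2, which leaves control replicate 2 alone, 12 were called, 10 of them among the 11, and the log2 difference was 0.91 for HSPA5, 0.97 for ATF5 and 0.66 for HYOU1. It moved by more than 1.5 times for 5 genes: SLC7A5 went from 1.25 to 0.82, TRIB3 from 0.96 to 0.54, SLC3A2 from 0.79 to 0.48, SESN2 from 0.78 to 0.43 and SDF2L1, no longer called, from 0.87 to 0.49. With a correction for GC content 15 were called, 10 of them among the 11; SDF2L1 was not. edgeR called 12 of the 35 (9.38% of all genes), DESeq2 15 (13.3%) and limma without the trend 0, and the log2 difference of none of the 11 changed sign under any alternative.

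**Figure D5:**
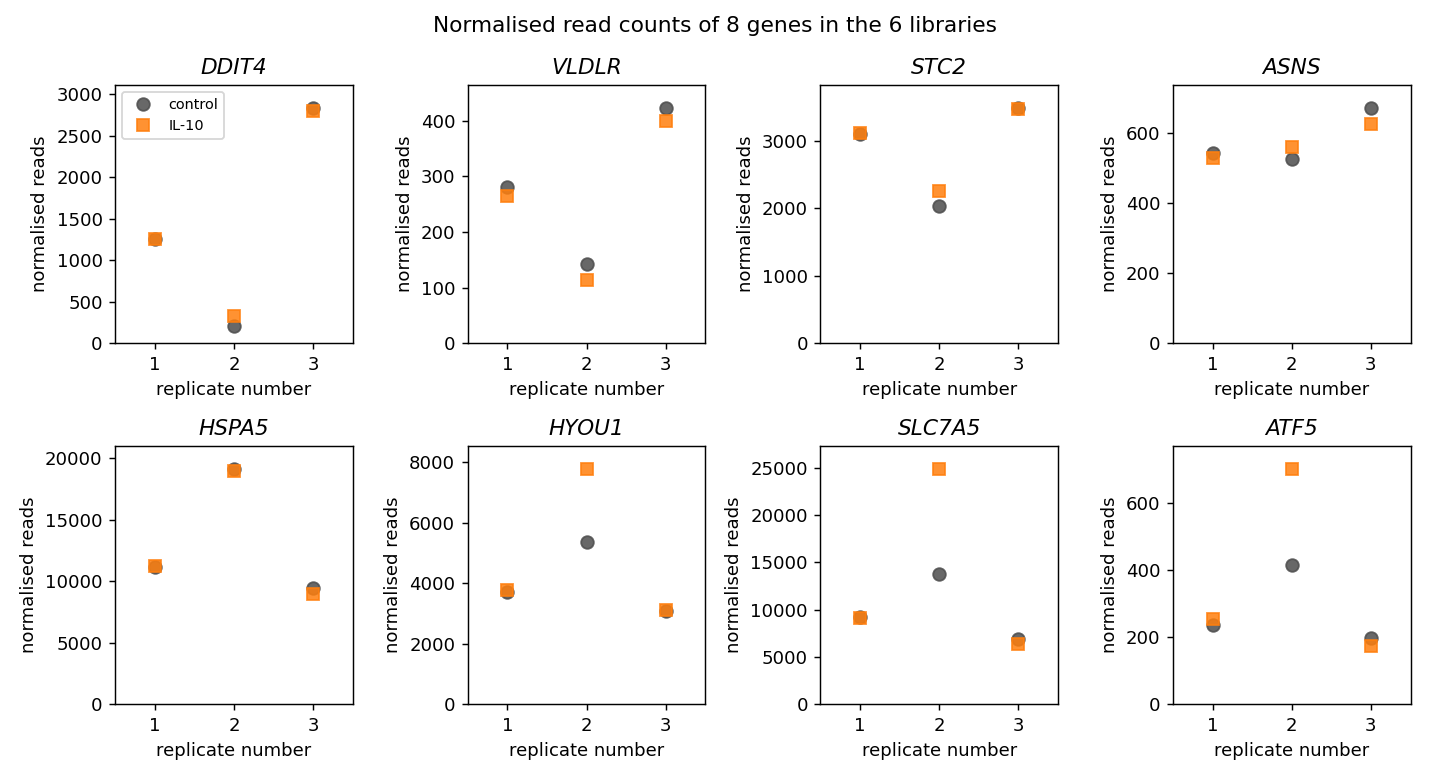
Normalised reads (y axes, from 0) of 8 genes by replicate number (x axes), with control as grey circles and IL-10 as orange squares, 1 library per symbol. DDIT4, VLDLR and STC2 are lowest in number 2, HSPA5, HYOU1, SLC7A5 and ATF5 are highest there, and symbols of numbers 1 and 3 lie close together.

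Other genes of both pathways were taken from lists that leave out the 35. Of 40 further genes of the unfolded protein response and of ER-associated degradation, 39 were tested with IL-10 and 0 passed, with a median log2 difference of 0.10. Between numbers 3 and 1, 3 of 39 rose and 6 fell (23.1% called), and in number 2, 4 of 40 rose and 1 fell (12.5%). The log2 differences of the 40 genes in number 2 ran from -0.77 to 2.79. The highest was WFS1, at 4.97 and 7.05 normalised reads in number 2 and 0 elsewhere. The genes named next, from both lists, are examples. HERPUD1, which helps build the degradation complex, rose 0.78 in number 2 on the log2 scale. MANF, a secreted ER stress protein, rose 0.67 there and fell by 0.32 in number 3 against 1. ERO1A, the oxidase that recharges disulfide isomerases, took the reverse course, with -0.77 in number 2 and 0.30 in number 3 against 1. Of 43 further genes of the integrated stress response and amino-acid metabolism, 42 were in the table and 0 passed with IL-10, with a median of 0.10. Between numbers 3 and 1, 3 of 41 rose and 6 fell (22.0%), and in number 2, 4 of 42 rose and 0 fell (9.52%). PPP1R15A (GADD34, the stress-induced eIF2 phosphatase subunit) rose 0.74 in number 3 against 1, while the amino-acid carriers SLC7A1 and SLC1A5 rose 0.69 and 0.86 in number 2 and fell by 0.19 and 0.15 in number 3 against 1. These shares lie near the 22.8% and 11.2% over all genes of mean at least 50.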

How the data were processed

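RNA from 3 control and 3 IL-10 samples of Kasumi-1 cells was sequenced after TruSeq preparation, per the labels' protocols. The authors deposited 1 table of signal values per Ensembl gene. Although named as FPKM by the authors, each library's deposited signal values are whole multiples of 1 step (100% of values within 0.01 read), so they are read counts divided by a size factor, and reads were recovered from them. edgeR 3.18.1 and GRCh38 are named in the submitters' processing notes; aligner, counting tool and strandedness: not given in the sources used here. Symbols were matched for 26883 of 27576 IDs, and coordinates, exon lengths and GC content come from GENCODE 29 (GRCh38), matched for 27052. No column belonged to no sample.

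The main test was limma 3.58.1 in R 4.3.3, fitted to log2(value + 1) with its variance following intensity, two-sided, with Benjamini-Hochberg adjustment and a threshold of 0.05. Genes had to reach 1 in 3 or more libraries (IL-10 against control) or in 2 or more (replicate numbers); all 35 genes passed each time. Fold changes are on that log2 scale and understate those of low genes. Alternatives were pseudocounts of 0.1 and 10, no filter or 10, quantile normalization, equal totals, no trend, edgeR 4.0.16 and DESeq2 1.42.0 on the recovered reads, the replicate block and each library left out. The comparison of number 2 against 1 and 3, the GC correction (lowess on each library) and edgeR without control replicate 2 were added after the values were seen.

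The numbers are taken to pair the libraries because all 3 correlations of same-numbered libraries (0.367 to 0.726) exceed 0.1, though both pairings across numbers 1 and 3 (0.176 and 0.208) do too; this comes from the values, as no label says what a number marks. The 35 genes, the other pathway lists and the markers were chosen with earlier results of these data known. Values in every library are given for the 4 genes of highest mean per role, the 3 of smallest p per direction with IL-10, the 5 per direction in number 3 against 1, and ATF4, ATF5, DDIT3, XBP1, ERN1, ATF6 and EIF2AK3; the others by range and count. The fitting code was tested on simulated data.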

Additional observations from a re-analysis of the deposited data

How the results depend on the processing

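With IL-10 against control, 0 of the 35 genes were called under every alternative, and over all genes 0 under each except pairs 1 and 3 with the replicate block, which called 11 genes (10 higher, 1 lower) and 0 of the 35. The replicate block on all 6 libraries called 0 genes and 0 of the 35 and changed no other call. For number 3 against 1 (2829 genes, 15 of the 35), all genes called numbered 1724 with no filter on low values, 598 with quantile normalization, 1468 in DESeq2 and 0 both without the trend and with all 6 libraries; leaving out 1 library, so that 1 number has a single library taken to vary like the rest, gave 1859 to 3185. The 35 genes gave 7 with quantile normalization, 0 without the trend, 0 with all 6 libraries and 10 to 16 with 1 library left out. For number 2 against 1 and 3 (1601 genes, 11 of the 35), the genes called numbered 477 with a pseudocount of 0.1, 210 without the trend, 3194 in DESeq2, 3645 with the GC correction, 3270 with the GC correction and treatment as a term, and 7962 in edgeR without control replicate 2; leaving out 1 library gave 140 to 8422. The 35 genes gave 7 with a pseudocount of 0.1, 0 without the trend, 26 in edgeR without control replicate 2 and 2 to 26 with 1 library left out. The causes of these shifts were not tested. Over single genes, 0 of the called differences reversed in any comparison, and differences that were not called changed sign in 96 of 735 settings with IL-10, 41 of 319 for number 3 against 1 and 23 of 456 for number 2. Depth limits CHAC1, at 6.96 to 38.2 normalised reads, most.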
